A study of Mus musculus with 8 samples.

Results

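The miR-181 family on this array was mmu-miR-181a, mmu-miR-181b, mmu-miR-181c and mmu-miR-181d, the 4 of 611 mouse miRNAs whose array name was that of a family member (mmu stands for mouse and is left out below). The rule went by name and used no measured value, although the family was picked for description with earlier results of these data known. They were measured in 3 micro-dissected tissues of the mammary gland: stroma, on 3 arrays, mature ducts, on 2, and terminal end buds (TEBs), on 3. All 3 tissues came from 5-week-old female beta actin-GFP reporter mice of the FVB/n strain, in which the beta actin promoter drives green fluorescent protein, so no group lacked the transgene, and no treatment is named for any of them. Each array received 100 ng of total RNA. The labels do not say whether the arrays of a tissue came from separate animals, so every p-value below measures the spread between these samples, which may be technical.

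MiRNAs are short RNAs that guide the silencing complex to messenger RNAs, mainly by pairing of their seed, bases 2 to 8 from the 5′ end. Members of a family share a seed and can therefore pair with many of the same messengers. The miR-181 family is best known from lymphocyte development, where miR-181a sets the strength of T cell receptor signalling, and it has been linked to transforming growth factor beta (TGF-β) signalling and to sphere growth of breast cancer cells. TEBs are the growing tips that drive ductal elongation at puberty, and mature ducts are the epithelial tubes they leave behind. The stroma is the fatty and fibrous tissue of the gland, taken here from distal regions according to the authors' methods.

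The mature sequences of the 4 members are shown because the shared seed is what makes them 1 family, and because the bases outside it are what a probe has to tell them apart. They are RefSeq sequences placed on GRCm38.p6, written 5′ to 3′ with the seed in capitals.
miR-181a: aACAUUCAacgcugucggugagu
miR-181b: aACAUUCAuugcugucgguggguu
miR-181c: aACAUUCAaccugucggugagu
miR-181d: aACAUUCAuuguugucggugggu

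All 4 carried the seed ACAUUCA, and none of the other mature names among the 1679 in the RefSeq table did. Counted from the 5′ end of miR-181a, miR-181b differed by A9U, C10U and A21G and was 1 base longer at its 3′ end. MiR-181d differed from miR-181b by the substitution C12U and lacked its last base. MiR-181c was miR-181a without the base at position 11, with 0 substitutions in the other 22 bases. The array probes were not examined for binding to more than 1 member, so the members' signals cannot be taken as fully separate measurements.

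The 4 members were encoded by 6 hairpin genes in 3 pairs. On chromosome 1, Mir181a-1 (137966455 to 137966541) lay 97 bases from Mir181b-1 (137966639 to 137966718), both on the plus strand. On chromosome 2, Mir181a-2 (38852735 to 38852810) and Mir181b-2 (38853830 to 38853918) were 1019 bases apart on the plus strand, within the annotated spans of the protein-coding gene Nr6a1 and the long noncoding RNA Nr6a1os. On chromosome 8, Mir181d (84178716 to 84178787) and Mir181c (84178873 to 84178961) were 85 bases apart on the minus strand, with no other annotated gene over them. The array's miR-181a and miR-181b signals could therefore come from either of 2 hairpins each.

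The array signal is an intensity, the summed and background-corrected brightness of all probes of a miRNA, and can fall below 0. Each signal was deposited with its error and with a flag, set by the scanner software, that says whether the miRNA was detected. The arrays flagged 142 to 169 of the 611 mouse miRNAs (23.2% to 27.7%), the most on duct replicate 2. Their median error ran from 3.59 to 10.4 units, highest on duct replicate 1. Epithelial marker miRNAs set the tissues apart in the direction of their labels: 8 of 10 were flagged on every duct and TEB array and 0 of 10 on any stroma array, with summed scaled signals of 2161 to 2391, 2059 to 2193 and 2.71 to 16.6 units respectively. Of 5 fibroblast and smooth muscle markers, 4 were flagged on every array of all 3 tissues (summed 2467 to 2964 units in stroma, 3427 to 3512 in ducts and 3160 to 3779 in TEBs), so the epithelial samples carried these miRNAs too. In such bulk samples, fewer cells of a type and less of a miRNA per cell cannot be told apart.

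Signals of the miR-181 family lay close to the background of the array in all 3 tissues. Of the 32 values (4 members on 8 arrays), 1 was flagged as detected, that of miR-181c on duct replicate 2. No member was flagged on every array of any tissue, a condition that 167 of the 611 mouse miRNAs (27.3%) met. MiR-181a, miR-181b and miR-181d were flagged on no array, like 408 of the 611 (66.8%), while miR-181c was 1 of 20 miRNAs (3.27%) flagged on exactly 1 array, 1 of 10 (1.64%) flagged on duct arrays only, and 1 of 4 (0.655%) flagged on duct replicate 2 only. The 32 signals ran from -8.20 to 25.6 units, against deposited errors of 3.63 to 10.6 units.

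Measured against its own error, 1 of the 32 values (miR-181c on duct replicate 2) was more than 3 errors above 0, 3 were more than 2 errors and 11 more than 1 error above 0, and 6 were negative. Of all 4888 mouse miRNA values, 25.3% were more than 3 errors above 0 and 59.4% were negative. The flag was not a plain limit of 3 errors, since 79 of 1244 flagged values (6.35%) lay at or under it and 74 of 3644 unflagged values (2.03%) lay above it. Against the 7 negative control features of the same array, 0 of the 32 values exceeded all 7, a level that 14.6% of the 4888 values passed. This last comparison is rough, because a control's signal need not sum the same number of probes as a miRNA's.

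**Figure D1:**
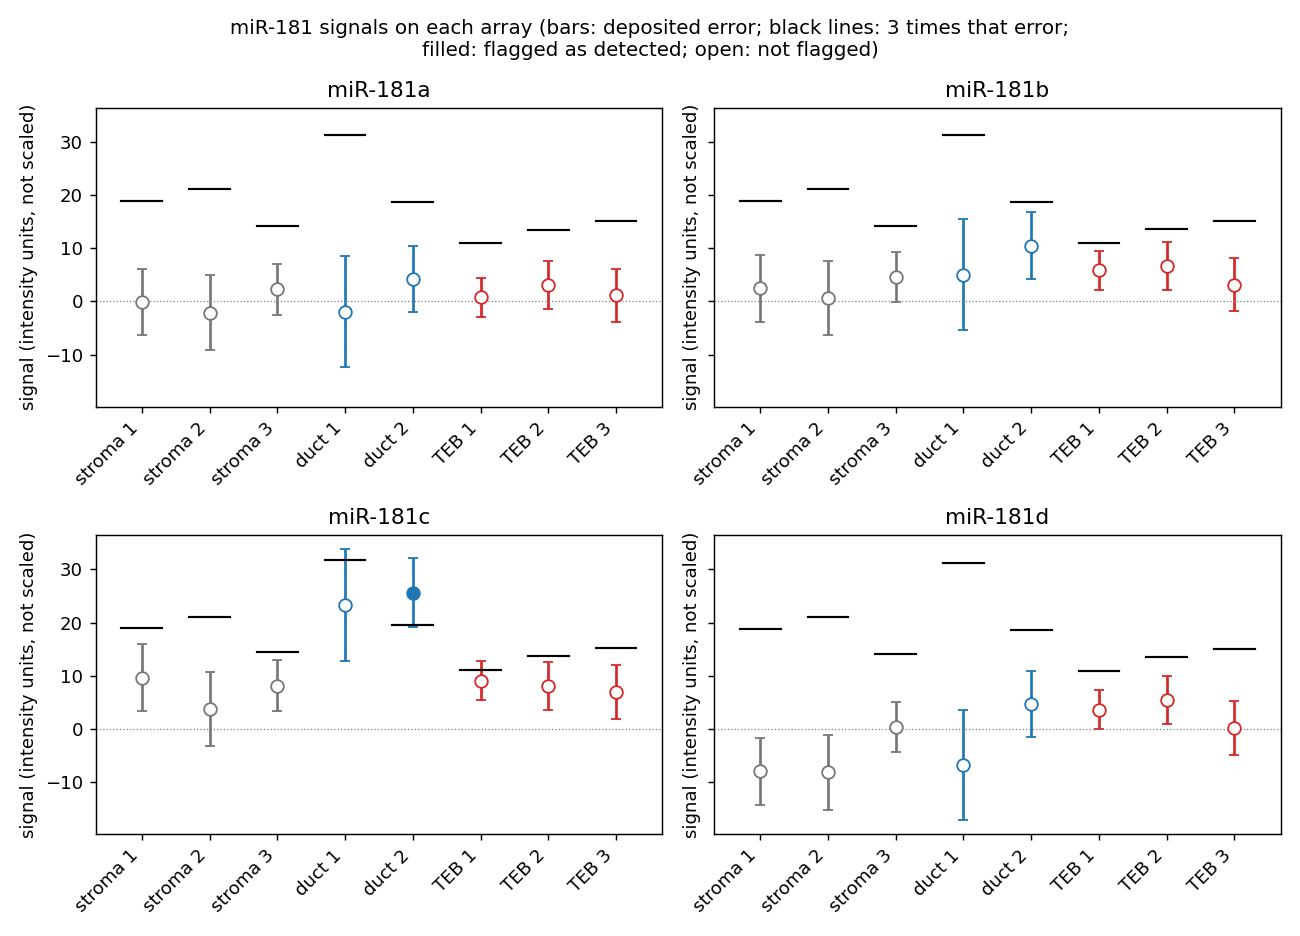
Signal of each miR-181 member on each of the 8 arrays (x axis; y axis in intensity units, not scaled), with the deposited error as a bar and 3 times that error as a black line; filled points were flagged as detected. The 1 filled point is miR-181c on duct replicate 2 at 25.6 units, and the only signal above its black line.

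MiR-181a, the member known for tuning T cell receptor signalling, gave signals of -0.130, -2.12 and 2.26 units in stroma replicates 1 to 3. It gave -1.92 and 4.27 units in duct replicates 1 and 2. It gave 0.787, 3.09 and 1.11 units in TEB replicates 1 to 3. No value reached even 1 deposited error above 0, and the highest, on duct replicate 2, stood at 0.688 errors. After scaling, which brought the arrays to a common brightness, the means were 0.129 ± 2.82 units in stroma (SD, n = 3), 0.995 ± 3.44 in ducts (SD, n = 2) and 1.63 ± 1.14 in TEBs (SD, n = 3). The 3 tissues overlapped throughout, and miR-181a was not well above background in any of them, so no fold change was formed.

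MiR-181b, which comes from the same 2 hairpin pairs, gave 2.49, 0.650 and 4.64 units in stroma replicates 1 to 3. It gave 5.03 and 10.5 units in the 2 duct arrays, and 5.89, 6.71 and 3.17 units in the 3 TEB arrays. All 8 values were positive, 3 were more than 1 error above 0 (duct replicate 2 and TEB replicates 1 and 2) and none was more than 2. The scaled means were 3.21 ± 2.82 units in stroma (SD, n = 3), 6.09 ± 3.28 in ducts (SD, n = 2) and 5.20 ± 1.65 in TEBs (SD, n = 3). The lowest value was in stroma and the highest in duct, but every pair of tissues overlapped.

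MiR-181c gave 9.64, 3.72 and 8.12 units in stroma replicates 1 to 3 and 9.07, 8.02 and 6.94 units in TEB replicates 1 to 3. In ducts it gave 23.3 units on replicate 1 and 25.6 units on replicate 2. Both duct values lay above all 6 values of the other tissues, and the stroma and TEB values overlapped. In units of the deposited error the duct values were 2.20 on replicate 1, which was not flagged, and 3.92 on replicate 2, which was. The stroma values reached 1.70 errors at most, and the TEB values 2.46. Duct replicate 1 had the largest error of any array, so its 23.3 units were within 3 errors of 0 while the similar value on replicate 2 was not. Among the 7 negative controls of their own arrays, the duct values stood above 4 on replicate 1 and 5 on replicate 2, and the other 6 values above 1 or 2.

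MiR-181d, the neighbour of miR-181c on chromosome 8, gave -7.98, -8.20 and 0.268 units in stroma replicates 1 to 3. It gave -6.85 and 4.69 units in the 2 duct arrays, which lay on both sides of 0. It gave 3.62, 5.44 and 0.144 units in the TEB arrays, of which 1 was more than 1 error above 0. The scaled means were -5.88 ± 5.47 units in stroma (SD, n = 3), -0.687 ± 6.29 in ducts (SD, n = 2) and 2.98 ± 2.57 in TEBs (SD, n = 3). The TEB and stroma values overlapped, since stroma replicate 3 lay above TEB replicate 3. The chromosome 8 pair thus gave no shared pattern that could be measured here: the duct arrays were the highest for miR-181c, whereas for miR-181d one lay below all TEB values and the other among them.

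**Figure D2:**
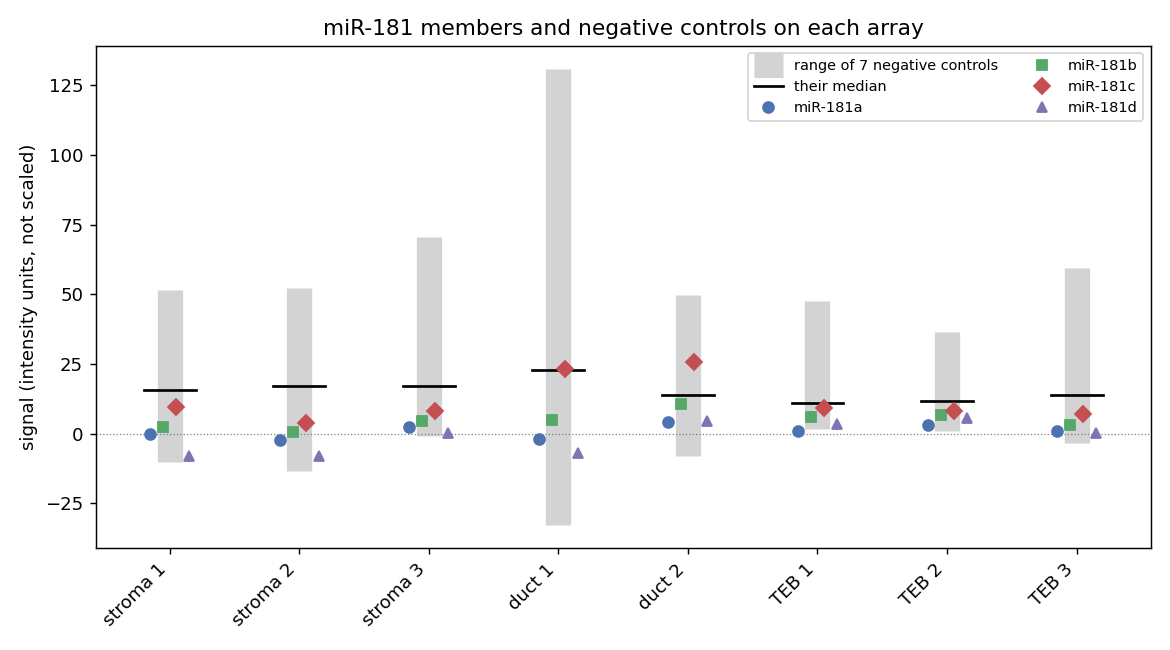
Signals of the 4 miR-181 members (points; y axis in intensity units, not scaled) on each array (x axis), beside the range (grey) and median (black line) of the array's 7 negative controls. Every member value lies below the highest control of its array, and miR-181c lies above the control median on the 2 duct arrays only.

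The design compares TEBs with ducts, TEBs with stroma and ducts with stroma. It asks whether miRNA levels differ between growing epithelium, mature epithelium and distal stroma. These comparisons share arrays, so they are not independent of each other. The test of differences, limma with adjusted p-values over all miRNAs tested, took in the 167 miRNAs flagged on every array of at least 1 tissue, and so 0 of the 4 members. It called 41 of the 167 between TEBs and ducts (24.6%), 108 between TEBs and stroma (64.7%) and 36 between ducts and stroma (21.6%), none of which could be a miR-181 member. The split of these calls moved with scaling. It was 19 higher and 22 lower in TEBs than in ducts, but 24 and 6 with the 75th percentile of all mouse miRNAs, 30 and 12 with quantile normalization and 12 and 63 without scaling. It was 34 higher and 74 lower in TEBs than in stroma, but 38 and 28 with that percentile and 41 and 41 without scaling. It was 16 higher and 20 lower in ducts than in stroma, but 11 and 8 with that percentile and 52 and 4 without scaling. For the members, the differences between scaled signals are given instead, each with a two-sided exact permutation test over the arrays. With 2 duct arrays the smallest p that test allows is 0.1 (10 arrangements). In the comparison of TEBs with stroma (20 arrangements) it is also 0.1, so it could not pass 0.05 in any comparison.

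Of the 4 members, miR-181c alone had non-overlapping tissues. Its scaled signals were 17.5 and 20.5 units in ducts, 9.13, 7.59 and 7.26 in TEBs, and 9.85, 4.47 and 11.04 in stroma. The scaled means were 19.0 ± 2.16 units in ducts (SD, n = 2), 7.99 ± 1.002 in TEBs (SD, n = 3) and 8.46 ± 3.501 in stroma (SD, n = 3). The TEB mean was below the duct mean (difference -11.02 units, exact permutation p = 0.1, the smallest possible). All TEB arrays lay below all duct arrays for 134 of the 611 mouse miRNAs (21.9%). The duct mean was 10.6 units above the stroma mean (exact permutation p = 0.1), and all duct arrays lay above all stroma arrays for 42 of the 611 (6.87%). TEBs and stroma differed by -0.462 units (exact permutation p = 0.9). Among the 408 miRNAs that were never flagged, 248 (60.8%) did not overlap between TEBs and ducts in one direction or the other, and 9 (2.21%) did not between ducts and stroma. Separation in either direction was thus common among these 408, which leave out miR-181c, in the former comparison and uncommon in the latter. Over all 611, TEB arrays lay above all duct arrays, the opposite direction to miR-181c, for 251 (41.1%). MiR-181a, miR-181b and miR-181d overlapped in all 3 comparisons, with exact permutation p-values from 0.2 to 1.

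Because miR-181c was flagged on 1 of 2 duct arrays and on 0 of 6 others, its fold difference can only be bounded. The bound was formed from means of log2 scaled signals. It sets the duct mean against, on each other array, the higher of miR-181c's own signal and the lowest signal flagged there. It came to 2.38-fold for ducts over TEBs and 1.68-fold for ducts over stroma, with the unflagged duct array taken at its measured value. On every TEB array miR-181c's own signal was above the lowest flagged one. The value for TEBs therefore equals the difference of the measured mean log2 signals, and is not a lower limit across processing choices. That difference of mean log2 signals was 3.07-fold without scaling and 1.63-fold with the 75th percentile of all mouse miRNAs as the scale. It was 1.46-fold with 16 added and 1.34-fold in the authors' matrix of log2 values. For ducts over stroma the difference of the measured mean log2 signals was 2.41-fold, and 3.68-fold without scaling. It was 2.16-fold with that percentile, 1.44-fold with 16 added and 1.502-fold in that matrix. The size of either difference was thus not settled. For miR-181a, miR-181b and miR-181d the same calculation stayed under 1, and no fold is given.

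When the detection filter was dropped and all 611 miRNAs entered limma, 0 of the 4 members were called in any of the 3 comparisons, against 18 of 611 between TEBs and ducts (2.95%), 107 between TEBs and stroma (17.5%) and 26 between ducts and stroma (4.26%). MiR-181c was the only member under an unadjusted p of 0.05. Its limma adjusted p was 0.171 for TEBs against ducts and 0.288 for ducts against stroma. Most values behind these fits were not well above background, so their log2 differences are not given beyond the folds for miR-181c above. An unadjusted p under 0.05 was reached by 123 of the 611 (20.1%) in the former comparison and by 70 (11.5%) in the latter, and by 163 (26.7%) between TEBs and stroma, where no member reached it. Over the other scalings, offsets and leave-outs in which miR-181c was tested, its limma adjusted p ran from 0.0795 to 0.815 for TEBs against ducts and from 0.0798 to 0.936 for ducts against stroma.

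The duct arrays were on different rows of the slide, and each row also held TEB and stroma arrays. The miR-181c difference of TEBs minus ducts was -9.12 scaled units within row 1 and -13.3 within row 2. Both duct values lay above all TEB values, so the direction had to be the same in both rows. The split is therefore no test of a slide effect. The 2 duct arrays also had the highest summed signals of the 8 (90548 to 97314 units, against 57154 to 78247 on the others), and their scaling factors of 0.750 and 0.802 were the lowest. The miR-181c difference of TEBs minus ducts was -16.4 units without any scaling and -6.32 units with the 75th percentile of all mouse miRNAs as the scale. The part of overall brightness in the miR-181c difference was not tested beyond these scalings.

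The array also held the opposite strands of the 2 miR-181a hairpins, named miR-181a-1* and miR-181a-2*, which do not share the family seed and were not counted as members. Their RefSeq sequences (GRCm38.p6) are shown, with bases 2 to 8 in capitals, because they come from the same precursors as miR-181a.
miR-181a-1*: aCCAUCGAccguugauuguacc
miR-181a-2*: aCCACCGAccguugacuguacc

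Neither opposite strand was flagged on any of the 8 arrays (0 of 16 values). MiR-181a-2* gave 8.08, 13.5 and 9.61 units in stroma, 16.5 and 6.90 in ducts, and -0.222, 1.95 and 2.78 in TEBs. All 3 TEB values lay below the 5 others, of which 3 were more than 2 errors above 0. Scaled means were 12.5 ± 3.99 units in stroma (SD, n = 3), 8.96 ± 4.84 in ducts (SD, n = 2) and 1.51 ± 1.59 in TEBs (SD, n = 3), with an exact permutation p of 0.1 for TEBs against each other tissue, the smallest possible. All TEB arrays lay below all stroma arrays for 131 of the 611 mouse miRNAs (21.4%). MiR-181a-1* gave 2.84, 7.37 and 6.89 units in stroma, 7.62 and 4.22 in ducts, and 0.588, 2.41 and 2.63 in TEBs, again with the TEB arrays lowest. Since both were not well above background in any tissue, no fold is given. The TEB arrays were not the lowest for miR-181a itself.

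Other miRNAs with known links to TGF-β signalling gave a contrast in detection. Of 23 such miRNAs, 21 were flagged on at least 1 array (33.2% of the 611 were) and tested, and 15 were flagged on all 8 (17.7% of the 611). Between TEBs and stroma, 10 of the 21 were higher in TEBs and 6 lower (20.4% and 44.3% of the 167 tested were), with a list median log2 difference of 0.37 against -0.28 over all 167 tested. Between ducts and stroma 8 were higher in ducts and 1 lower (9.58% and 12% of the 167; median 0.21 against -0.09). Between TEBs and ducts 1 was higher in TEBs and 3 lower (11.4% and 13.2% of the 167; median -0.04 against -0.10). The counts depended on scaling. Without scaling, and with the 75th percentile of all mouse miRNAs, 10 were higher and 0 lower in TEBs than in stroma. Between TEBs and ducts the balance turned, with 5 higher and 2 lower in TEBs (median 0.08) after quantile normalization, 0 and 5 (median -0.41) without scaling, and 1 and 1 (median 0.51) with that percentile. Between ducts and stroma the counts were 9 and 2, 10 and 0, and 6 and 0 under the same 3 scalings.

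Among the 10 were the 5 members of the miR-200 family and miR-205, which repress the Zeb transcription factors that TGF-β induces. These 6 are also epithelial markers and were flagged on every duct and TEB array and on no stroma array. They passed the filter only through the tissues where they were high, so their calls above stroma were largely fixed by it. They were also among the 8 called higher in ducts than in stroma. The list's counts and medians against stroma rest partly on them and do not show a list-wide difference. Within the epithelium, miR-200a was lower in TEBs than in ducts (scaled mean ± SD of 76.7 ± 8.66 units, n = 3, against 228 ± 25.3, n = 2; log2 difference -1.57, SE 0.13, limma adjusted p = 0.00037), in the same direction under all 4 scalings. MiR-93, of the miR-106b cluster, was higher in TEBs than in ducts (83.5 ± 5.99 against 51.8 ± 6.80 units; log2 difference 0.69, SE 0.13, limma adjusted p = 0.0148), though without scaling the limma adjusted p was 0.251. MiR-29c, which targets collagen messengers, was lower in TEBs than in stroma (238 ± 14.5 against 417 ± 57.8 units; log2 difference -0.80, SE 0.13, limma adjusted p = 0.00244). That call was lost with the 75th percentile of all mouse miRNAs (log2 difference -0.41, limma adjusted p = 0.312) and without scaling (-0.55, limma adjusted p = 0.0658). MiR-21, whose processing is promoted by SMAD proteins, was bright in all 3 tissues, at 5152 ± 308 units in stroma, 5727 ± 912 in ducts and 6869 ± 1573 in TEBs, and was not called.

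**Figure D3:**
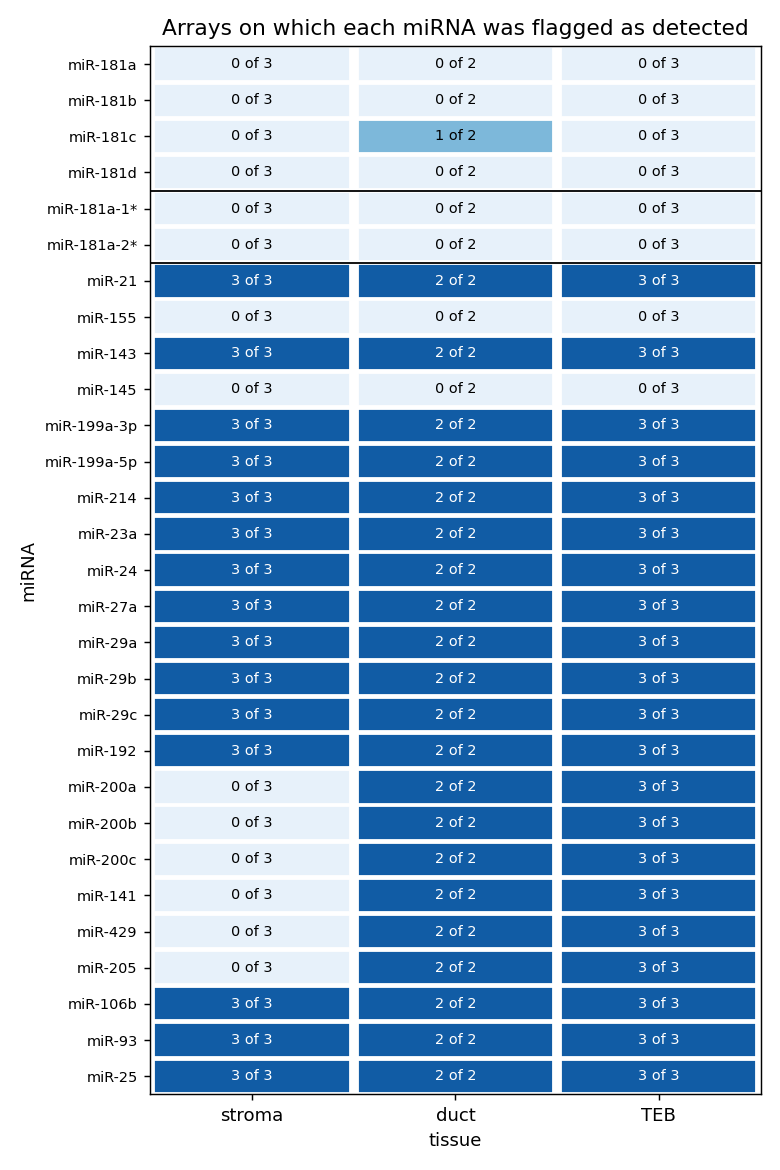
Number of arrays of each tissue (columns) on which each miRNA (rows) was flagged as detected, for the 4 miR-181 members (top), the opposite strands of miR-181a-1 and miR-181a-2 (middle) and 23 miRNAs linked to TGF-β signalling (bottom). The miR-181 rows hold 1 flag in all, on a duct array, while 15 of the 23 others were flagged on all 8 arrays.

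Of 13 miRNAs linked to mammary stem and progenitor cells, a list that overlaps the last, 11 were tested and 7 were flagged on all 8 arrays (17.7% of the 611 were). Between TEBs and stroma 4 were higher in TEBs and 3 lower (20.4% and 44.3% of the 167 tested were), with a median log2 difference of 0.39 against -0.28 over the 167. Between ducts and stroma 3 were higher in ducts and 1 lower (9.58% and 12% of the 167; median 0.06 against -0.09), and between TEBs and ducts 1 was higher in TEBs and 0 lower (11.4% and 13.2% of the 167; median 0.00 against -0.10). These counts moved with scaling too: 6 were higher and 0 lower in TEBs than in stroma with the 75th percentile of all mouse miRNAs (median 0.79), and 7 were higher and 0 lower in ducts than in stroma without scaling (median 0.67). Between TEBs and ducts 0 were higher and 2 lower in TEBs without scaling. Of those called higher in TEBs than in stroma, miR-200c, miR-205 and miR-221 were flagged on no stroma array. They too passed the filter only through epithelial arrays, so these calls were largely fixed by it. The same holds for miR-200c and miR-205 among the 3 called higher in ducts than in stroma. MiR-22, which has been linked to mammary progenitor expansion, was lower in TEBs than in stroma (4120 ± 166 against 7002 ± 121 units; log2 difference -0.77, SE 0.07, limma adjusted p = 0.00029). With the 75th percentile of all mouse miRNAs that call was lost (log2 difference -0.37, limma adjusted p = 0.312). Adipocyte markers (2 miRNAs, summed to 325 to 362 units in stroma and 81.5 to 154 in TEBs) and endothelial markers (2 miRNAs, 2765 to 3863 units in stroma and 1315 to 1650 in TEBs, with miR-126-5p flagged on no array) were lower in TEBs as well. Their part in the miR-22 and miR-29c differences was not tested.

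Leukocyte markers are of interest beside this family because of its place in lymphocytes. Of 5 such miRNAs, miR-142-3p and miR-223 were flagged on every array, and miR-142-5p, miR-150, which marks mature lymphocytes, and miR-155 on none. Their summed scaled signal was 563 to 679 units in stroma, 361 to 384 in ducts and 296 to 450 in TEBs. Most of that sum was miR-223, at 506 to 546 units in stroma, 321 to 336 in ducts and 255 to 397 in TEBs. The part of leukocytes in the miR-181 signals was not tested.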

How the data were processed

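Agilent 1-colour mouse miRNA arrays (8 on 1 slide) were read with Agilent Feature Extraction 9.5.3, per the submitters' processing notes. The authors deposited 1 table per array with an intensity (total gene signal), its error and a detection flag per miRNA, background-corrected and not scaled between arrays. They also deposited a matrix of normalized log2 values (672 rows, 8 arrays). Its method, floor and offset are not given in the sources used here, but from its values it was quantile normalized, since its columns share their sorted values above a low floor. Its columns followed the log2 intensities with a positive slope, their medians ran from 0.1385 to 1.476, and it served as an alternative.

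Intensities were scaled so that each array's 75th percentile over the 108 mouse miRNAs flagged on all 8 arrays was equal. Scaled signals under 1 were set to 1 before log2. The 167 miRNAs flagged on every array of at least 1 tissue entered a limma fit (limma 3.58.1, R 4.3.3) over all 8 arrays, with no covariates and Benjamini-Hochberg adjustment at 0.05. The members' scaled signals were compared by two-sided exact permutation tests (Python 3.11.15). The family was to be named whole, with the miRNAs of most similar pattern for each tested member. No member was tested, so no such miRNAs were sought. Members and marker and pathway lists were chosen with earlier results of these data known. In a single simulated data set for TEBs against stroma (167 miRNAs), limma recovered 28 of 30 miRNAs changed by a log2 difference of 2, with 2 false calls. Smaller changes and the members themselves were not simulated. The number of arrays limits the precision. Alternatives changed the scaling, floor, background correction, filter, slide row, replicate block, test and arrays. The 61 control and other probes (39 of them viral) were not tested. After each miRNA's tissue mean was removed, replicates of the same number correlated at -0.104 on average over 7 pairs. Replicates of different numbers correlated at 0.052 over 14 pairs, and the numbers were not taken as pairs. Sequences and coordinates came from RefSeq (GRCm38.p6), which held all 4 members.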

Additional observations from a re-analysis of the deposited data

How the results depend on the processing

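No miR-181 member passed the detection filter, so the number called was 0 in all 3 comparisons. Over the 26 alternatives it was 0 in 77 of 78 values, but members were tested in only 18 of these. The exception was the series matrix with no filter, chosen after seeing the data, where 1 member was called between TEBs and stroma: miR-181d, log2 difference 2.52 (SE 0.77), limma adjusted p = 0.0493. In that matrix 2 of its 3 stroma values were at the bottom of their columns (0.1359 for the lowest). With a flag on at least 1 array counting as detection, 1 member was detected in a tissue in place of 0. Without duct replicate 1, miR-181c entered the test only through its flag on duct replicate 2, the 1 duct array left. Its log2 differences were then -1.37 for TEBs minus ducts and 1.38 for ducts minus stroma. Both rest on the same value that let it pass the filter, so they are no test of a difference. Where 1 duct array remained, it was assumed to vary like the other tissues. Most-alike miRNAs gave no value.

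The miR-181c difference of TEBs minus ducts stayed negative in 14 alternatives, all chosen after seeing the data: -6.32 with the 75th percentile of all mouse miRNAs, -16.4 with no scaling, -6.40 with quantile normalization, -22.5 with normexp and no offset, -9.12 and -13.3 within slide rows 1 and 2, and -12.5 to -9.49 leaving out each array. Ducts minus stroma stayed positive: 17.3 with no scaling, 6.70 with normexp and no offset, and 8.56 to 12.1 leaving out each array. Within slide rows and with arrays left out, both signs were fixed in advance, since both duct values lay above all values of the other tissues. Leaving out an array of the tissue not compared left a difference unchanged.

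Normexp with no offset lowered TEBs against the other tissues for all 4 members. TEBs minus ducts turned from 0.630 to -11.0 for miR-181a and from 3.67 to -7.96 for miR-181d, and went from -0.890 to -12.5 for miR-181b. TEBs minus stroma turned from 1.497 to -14.0 for miR-181a, 1.99 to -13.4 for miR-181b and 8.86 to -6.65 for miR-181d, and went from -0.462 to -15.8 for miR-181c. Ducts minus stroma turned from 0.867 to -2.98 for miR-181a and from 2.88 to -0.963 for miR-181b. The -22.5 for miR-181c is part of this shift. TEBs minus ducts of the other members also changed sign between slide rows 1 and 2: 3.29 and -2.27 for miR-181a, 2.37 and -5.10 for miR-181b, and 9.53 and -3.61 for miR-181d.

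Over all miRNAs, calls between TEBs and ducts went from 41 to 75 with no scaling, 71 with 16 added before log2, 18 with no filter, 16 with the replicate block, and 12 by the methods' t-test after Benjamini-Hochberg adjustment. Leaving out each array gave 5 to 45, with 8 without duct replicate 1 and 5 without TEB replicate 2. Calls between TEBs and stroma went from 108 to 66 with the 75th percentile of all mouse miRNAs, and 82 to 114 leaving out each array. Calls between ducts and stroma went from 36 to 19 with that percentile, 56 with no scaling and 66 with normexp and an offset of 50, and 23 to 40 leaving out each array (23 without duct replicate 1). With that percentile the median log2 difference was 0.45 in place of -0.10 for TEBs against ducts, and 0.12 in place of -0.28 for TEBs against stroma, and no scaling moved that between ducts and stroma from -0.09 to 0.50. The causes were not tested. The replicate block changed no member's call, since none was tested.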

Other observations

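Some other miRNAs that share a hairpin or a transcript were also split by the flag, and some were not. MiR-143 was flagged on 8 of 8 arrays (50.6 to 134 units) and miR-145, its neighbour in the genome, on 0 of 8 (-4.15 to 4.70 units). MiR-126-3p was flagged on 8 of 8 arrays (1306 to 3450 units) and miR-126-5p on 0 of 8 (-27.3 to -2.73 units). In contrast, miR-199a-3p and miR-199a-5p were both flagged on 8 of 8 arrays, as were miR-106b, miR-93 and miR-25 of the miR-106b cluster. These examples were chosen after their values were seen, and such splits were not counted over the array.

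MiR-181c was 1 of 10 mouse miRNAs flagged on duct arrays and on no other array. Of these, miR-184 was flagged on both duct arrays and the other 9 on 1. The 4 flagged on duct replicate 2 alone were miR-181c, miR-298, miR-376a and miR-671-5p. That array flagged the most mouse miRNAs of all (169 of 611, 27.7%), down to 3.81 units for miR-671-5p.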
